A study of Mus musculus with 3 samples.

Results

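Genes of 3 families of splicing regulators were followed in RNA held on the chromatin of mouse macrophages: the SR genes (symbols beginning with Srsf and a digit), the hnRNP genes (Hnrnp) and the SF3 genes (Sf3a or Sf3b and a digit). A gene was taken when its symbol matched 1 of these patterns and it had at least 1 transcript annotated as protein-coding. This gave 40 genes of 55450 in all, with 11 SR, 20 hnRNP and 9 SF3 genes on 17 chromosomes. A further 2 symbols matched but had no protein-coding transcript and were left out.

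The cells were bone-marrow-derived macrophages of C57BL/6J mice, which are primary cells. All had been given 100 ng/ml lipid A, the Toll-like receptor 4 ligand within lipopolysaccharide, for 12 h, were then washed out for 12 h, and received 100 ng/ml lipid A once more for 90 min. Total RNA of the chromatin fraction was depleted of ribosomal RNA and sequenced in 3 libraries, from 1 µg (replicate 1), 250 ng (replicate 2) and 500 ng (replicate 3) of starting RNA. The labels number them as biological replicates and give all 3 the same donor entry. They do not say whether the libraries came from separate animals or cultures, so the SDs below may be partly technical, and age and sex were not recorded. There is 1 condition and no untreated group, so nothing below is a response to lipid A, and no test between conditions was possible.

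SR proteins bind exons through RNA-recognition domains and recruit the splicing machinery through an arginine- and serine-rich tail, while hnRNP proteins coat nascent RNA and often act against the use of nearby splice sites. The SF3a and SF3b complexes are parts of the U2 small nuclear ribonucleoprotein that recognises the branch point of an intron. Many genes of the SR and hnRNP families are known to adjust their own output by splicing their RNA into forms that stay in the nucleus or that carry a premature stop codon and are degraded by nonsense-mediated decay in the cytoplasm. A chromatin fraction holds RNA that is still being made, so reads in an intron can come from an intron that will be kept or from one not yet removed, and these data cannot tell the 2 apart.

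The libraries held 12671700, 21747001 and 16915406 expected counts in replicates 1, 2 and 3. The 40 genes took between 0.696% and 0.764% of the counts on genes. Replicates 2 and 3 were the closest pair over these genes, with a chi-square of 15.3 per degree of freedom against 51.2 and 36.3 for the pairs with replicate 1. Each pair thus differed by more than counting noise, which does not show whether the libraries are separate cultures. All 10 macrophage markers were detected, summing to between 989 and 1178 TPM (a length-corrected abundance relative to all transcripts of the library), while 4 of 27 markers of other lineages were. These were Cd4, Alas2, Vwf and Kdr, and the 4 endothelial markers summed to between 19.3 and 50.1 TPM, whose part in the values below was not tested. Cd3e, Cd3d, S100a8, Ly6g and Elane were at 0 in every library. In bulk RNA, fewer cells of a type and less RNA per cell cannot be told apart.

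The splicing regulators were high on chromatin as a group. Of the 40 genes, 38 reached 1 TPM in each library, the limit used for detection, compared with 41.2% of the 21888 genes with a protein-coding transcript. In each library 33 had at least 10 TPM and 12 had at least 100 TPM, limits for which no share over all genes is given. The median over the 40 genes was 55.5 ± 3.08 TPM (mean ± SD, n = 3 libraries, as for all values below), against 5.71 ± 0.338 TPM over the 12362 protein-coding genes that averaged 0.1 TPM or more. By family the median was 62.4 ± 8.18 TPM for SR genes, 74.8 ± 17.1 TPM for hnRNP genes and 19.2 ± 4.29 TPM for SF3 genes. As a difference of medians of log2(TPM + 1) from those protein-coding genes, SR genes stood 3.24 ± 0.14 higher, hnRNP genes 3.48 ± 0.38 higher and SF3 genes 1.57 ± 0.36 higher. The SR and hnRNP values differed by less than the spread between libraries, and the SF3 value lay below both in every library. In the second deposited transcript table, made from the reads directly rather than from alignments, SR genes stood 2.77 ± 0.15 higher, hnRNP genes 3.76 ± 0.21 and SF3 genes 2.43 ± 0.14. There the gap between SR and hnRNP genes was larger than the spread, so how the SR genes compare with the others depended on the table.

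**Figure D1:**
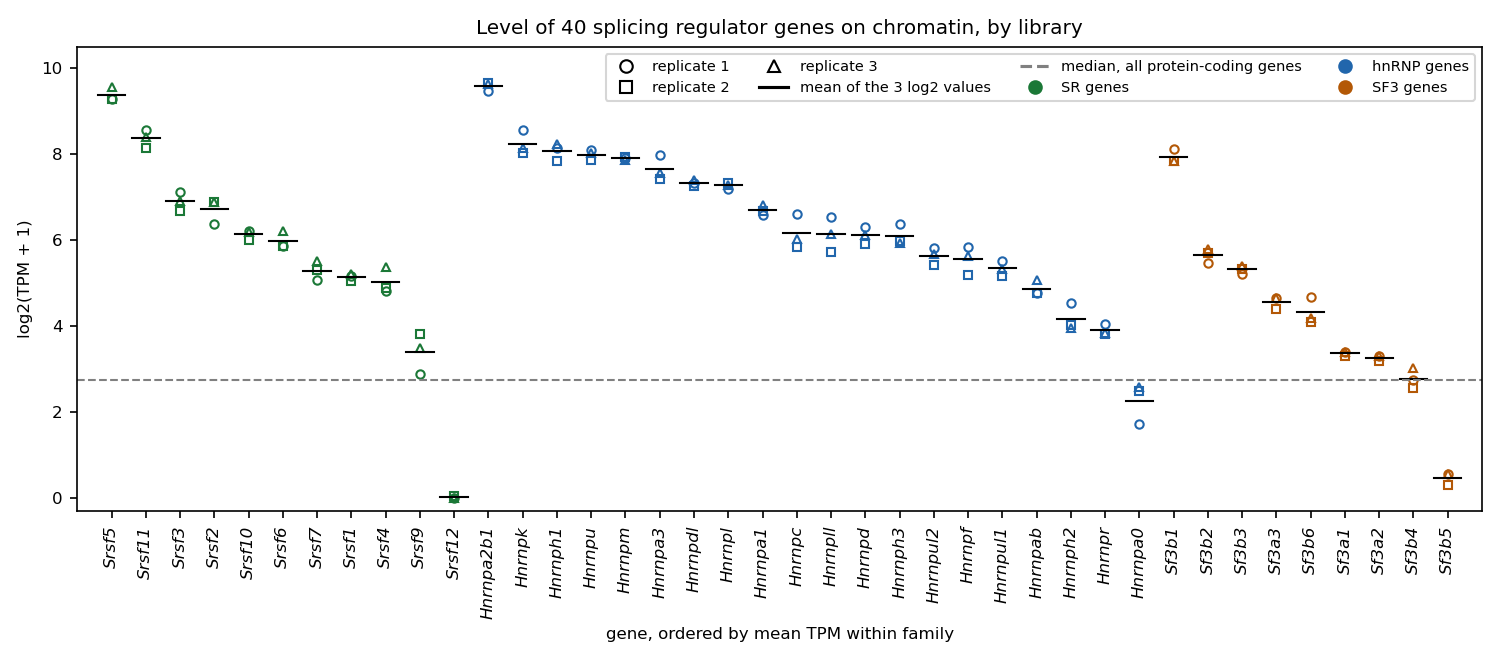
Level of each of the 40 genes as log2(TPM + 1), with 1 symbol per library, the mean of the 3 log2 values as a bar and the median of protein-coding genes as a dashed line. Srsf5, Hnrnpa2b1 and Sf3b1 lead their families, Srsf12 and Sf3b5 lie near 0, and most genes sit above the dashed line in each library.

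Among SR genes, Srsf5, at chr12:80945504-80950507 on mm10, was highest. Its level was 628, 621 and 756 TPM in replicates 1, 2 and 3 (mean 668 ± 75.7 TPM), so replicate 3 was the highest library. Srsf11, a further SR-family gene with an arginine- and serine-rich domain, at chr3:158010473-158036639, had 382, 281 and 336 TPM. Srsf3, whose product is among the smallest SR proteins and also links splicing to RNA export, at chr17:29032628-29043373, had 139, 102 and 120.4 TPM. In both genes replicate 1 was highest and replicate 2 lowest. Srsf5 was above Srsf11, and Srsf11 above Srsf3, in each library.

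The remaining SR genes spread over a wide range. Srsf2, also known as SC35 and used as a marker of nuclear speckles, had a mean of 106 ± 20.6 TPM. Srsf10 had 69.6 ± 5.83 TPM and Srsf6 63.1 ± 9.25 TPM, a difference smaller than the spread between libraries. Srsf7, which carries a zinc knuckle beside its RNA-recognition domain, had 38.6 ± 5.89 TPM. Srsf1, also known as ASF/SF2 and the founding member of the family, had 34.4 ± 1.97 TPM and Srsf4 32.3 ± 7.26 TPM, again within the spread. Srsf9 stood lower at 9.89 ± 3.37 TPM. Srsf12 was listed at 0 TPM in replicates 1 and 3 and had 2 counts in replicate 2, below the 3 counts that a count of 0 allows. The second transcript table put Srsf12 at 1.75, 0.884 and 1.21 TPM, so it missed the limit of 1 TPM in replicate 2 there as well.

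All 20 hnRNP genes were detected. Hnrnpa2b1, whose A2 and B1 proteins bind RNA through paired recognition domains, at chr6:51460932-51469894, was the highest of all 40 genes at 708, 812 and 792 TPM (mean 771 ± 55.6 TPM). Hnrnpk, which binds C-rich RNA through KH domains, at chr13:58391142-58403343, had 379, 259 and 281 TPM. Hnrnph1, a binder of G-runs, at chr11:50376990-50386528, had 282, 230.3 and 301 TPM. Hnrnpk was highest in replicate 1 and Hnrnph1 in replicate 3, and the ranges of Hnrnpk and Hnrnph1 overlapped below that of Hnrnpa2b1.

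The next genes in order overlapped their neighbours over the libraries, except that Hnrnpa3 lay above Hnrnpdl, and Hnrnpl above Hnrnpa1, in each. They were Hnrnpu (scaffold attachment factor A), 255 ± 21.1 TPM; Hnrnpm, 239.7 ± 5.39 TPM; Hnrnpa3, 204 ± 43.6 TPM; Hnrnpdl, 161 ± 7.13 TPM; Hnrnpl, a binder of CA-rich RNA, 154 ± 7.17 TPM; and Hnrnpa1, 103 ± 8.48 TPM. Hnrnpc, which binds U-runs, had 72.5 ± 21.3 TPM, Hnrnpll 71.5 ± 20.2 TPM, Hnrnpd (AUF1, a binder of AU-rich elements) 68.9 ± 9.53 TPM and Hnrnph3 68.5 ± 12.3 TPM, and these levels differed by less than their spread. Hnrnpul2, Hnrnpf, Hnrnpul1, Hnrnpab, Hnrnph2 and Hnrnpr had means between 14.1 and 49.5 TPM. Hnrnpa0, an intronless gene at chr13:58125879-58128556 whose product also binds AU-rich elements, was lowest. Its level was 2.31, 4.66 and 5.01 TPM, with replicate 1 below the other two.

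Of the SF3 genes, Sf3b1 stood far above the rest. It encodes the large scaffold of SF3b that holds the branch point and lies at chr1:54985169-55027481. Its level was 276, 229 and 229 TPM (mean 245 ± 27.3 TPM). Sf3b2, at chr19:5273932-5295455, followed with 43.5, 51.5 and 54.7 TPM and Sf3b3, at chr8:110810239-110846787, with 36.4, 39.4 and 41.5 TPM. Sf3b1 was thus above Sf3b2 in every library, and its lowest library was above the highest of every other SF3 gene.

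The SF3a subunits were lower. Sf3a3 had 22.9 ± 2.47 TPM, Sf3a1 9.37 ± 0.448 TPM and Sf3a2 8.64 ± 0.464 TPM. Sf3b6, whose small protein lies next to the branch point, had 19.3 ± 4.52 TPM and Sf3b4 5.93 ± 1.12 TPM. Sf3b5, at chr10:13005343-13009183, was lowest with 0.48, 0.24 and 0.48 TPM from 19, 17 and 26 counts. In the second transcript table it had 2.57, 1.53 and 1.94 TPM, so its detection depended on the table. Products of the SF3b genes form 1 complex, and the mean levels of these genes on chromatin ran from 0.40 TPM in Sf3b5 to 245 TPM in Sf3b1.

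Most of these genes differed by less than 2-fold between libraries. After scaling the counts by TMM (trimmed mean of M-values, a library scaling that assumes most genes are equal), 1 of 38 detected genes differed more than 2-fold between its highest and lowest library, against 14.9% of 9025 detected protein-coding genes. This was Hnrnpa0, with 62, 221 and 183 counts and a ratio of 2.18. The call did not hold without replicate 1, when none of the 38 passed. Srsf9 came next, with 63, 202 and 135 counts and a ratio of 1.97, and then Hnrnph2 with 708, 838 and 583 counts and a ratio of 1.63. Replicate 1 was the lowest library for Hnrnpa0 and Srsf9 and the highest for Hnrnph2 after scaling. In all, 33 of the 38 had a ratio below 1.5, a count that is not given for all genes. The members had a higher median level than protein-coding genes, and ratios vary more at low counts. The comparison with all detected genes was not matched for level.

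The annotation lists several kinds of transcript for most of these genes: 148 protein-coding transcripts, 96 of type retained intron (a transcript that holds intron sequence and has no coding sequence assigned), 36 of type nonsense-mediated decay (the stop codon lies more than about 50 bases before the last splice junction) and 42 of type processed transcript (spliced, with no open reading frame assigned). The share of a gene's TPM on each type was taken in each library. Protein-coding transcripts held 31.3% ± 0.219 of the summed TPM of the 38 genes, against 47.4% ± 2.33 over all 9025 detected genes. In 10 of the 38 genes they held less than 25% in every library: Srsf3, Srsf5, Srsf7, Srsf11, Hnrnpa1, Hnrnph1, Hnrnpl, Hnrnpll, Hnrnpu and Sf3b6. The share of all detected genes below that limit is not given, so this count describes the members only. At the other end, Hnrnpa0, Hnrnpab, Hnrnpf and Hnrnph2 have only protein-coding transcripts annotated, so their share is 100% by construction.

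**Figure D2:**
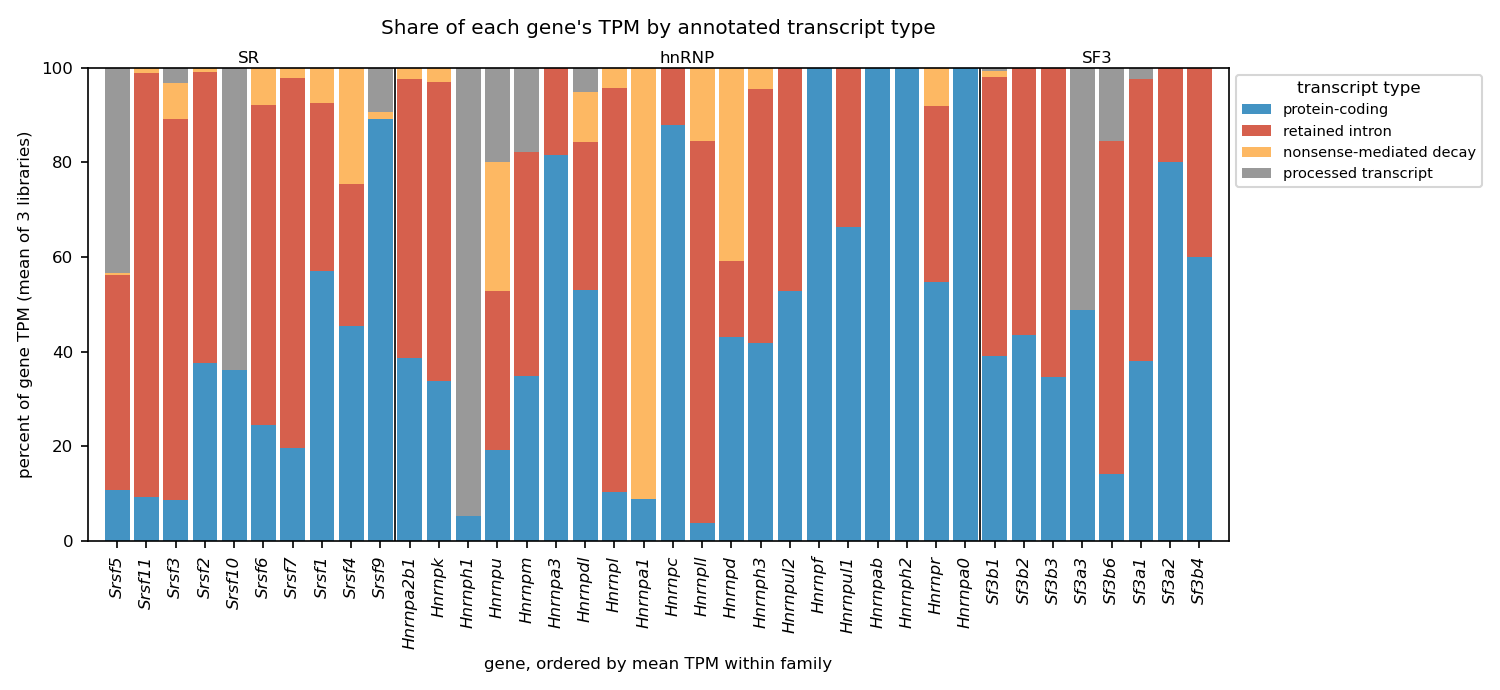
Stacked bars give the mean percent of each gene's TPM on protein-coding, retained-intron, nonsense-mediated decay and processed transcripts for the 38 detected genes, by family and in order of level. Retained-intron transcripts fill most of Srsf11, Hnrnpl, Hnrnpll, Srsf3 and Srsf7, decay transcripts fill Hnrnpa1, and processed transcripts fill Hnrnph1.

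Retained-intron transcripts held a median of 52.9% ± 3.18 of gene TPM over the 29 detected members that have one. The same median over 5883 protein-coding genes was 48.0% ± 2.41. In the second table the order was the opposite, 44.3% ± 0.873 for members and 46.4% ± 0.983 for all, so the direction depended on the table. By family the median was 64.5% ± 1.44 over 8 SR genes, 41.3% ± 6.83 over 14 hnRNP genes and 57.4% ± 4.11 over 7 SF3 genes. The share passed 50% in each library in 15 of 29 members, against 36.9% of all such genes. These were 5 of 8 SR genes (Srsf2, Srsf3, Srsf6, Srsf7, Srsf11), 5 of 14 hnRNP genes (Hnrnpa2b1, Hnrnph3, Hnrnpk, Hnrnpl, Hnrnpll) and 5 of 7 SF3 genes (Sf3a1, Sf3b1, Sf3b2, Sf3b3, Sf3b6). As a share of counts, which weights longer transcripts more, 10 of 29 members passed 50%, against 25.7% of all such genes. They were 6 of 8 SR genes, with Srsf5 added, 3 of 14 hnRNP genes without Hnrnph3 and Hnrnpk, and 1 of 7 SF3 genes, Sf3b6. The SF3 median was 33.9% by that measure.

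The share moved with how many retained-intron transcripts a gene has in the annotation. Spearman's rho over the 29 members was 0.58, whereas it was 0.15 against mean TPM. These points are genes of the same 3 libraries, so the values are descriptive. Among members with 1 such transcript the median share was 35.0% over 8 genes, and over all genes 33.0%. With 2 to 3 it was 40.2% over 11 members and 50.3% over all, and with 4 or more 64.3% over 10 members and 63.5% over all. Members with the same number of annotated forms were therefore close to other genes, or lower. Detected members had 2.53 retained-intron transcripts on average and all detected genes 1.72.

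The highest retained-intron share was that of Srsf11, at 95.6%, 87.1% and 85.5% of TPM. It has 11 retained-intron transcripts, led by Srsf11-213 and Srsf11-208 with 25.2% and 23.9% of the gene. Hnrnpl had 90.7%, 82.1% and 83.4%, and its paralogue Hnrnpll, known for its part in Cd45 splicing in lymphocytes, 85.5%, 77.7% and 79.0%. Srsf3 had 78.6%, 82.2% and 81.3%, and Srsf7 83.4%, 75.2% and 75.9%. In each of these genes except Srsf3, replicate 1 had the highest share. The second table put Srsf11 at 75.4% and Srsf3 at 60.45%, and left Hnrnpl (85.8%), Hnrnpll (81.4%) and Srsf7 (79.0%) within 1 point of the first.

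The lowest shares were in hnRNP genes. Hnrnpc had 12.9%, 14.5% and 8.72%, Hnrnpd 26.4%, 15.3% and 5.92%, and Hnrnpa3 15.9%, 20.3% and 19.0%. Hnrnpd varied more than 4-fold between libraries, highest in replicate 1 and lowest in replicate 3, and its single retained-intron transcript is short at 425 bases. Over the 29 members, replicate 1 had the highest share in 20, replicate 2 in 7 and replicate 3 in 2. The median over all protein-coding genes was likewise highest in replicate 1, at 50.8%, 46.4% and 47.0%. Replicate 1 also had the most starting RNA and the lowest count, and with 1 library of each kind these cannot be told apart.

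**Figure D3:**
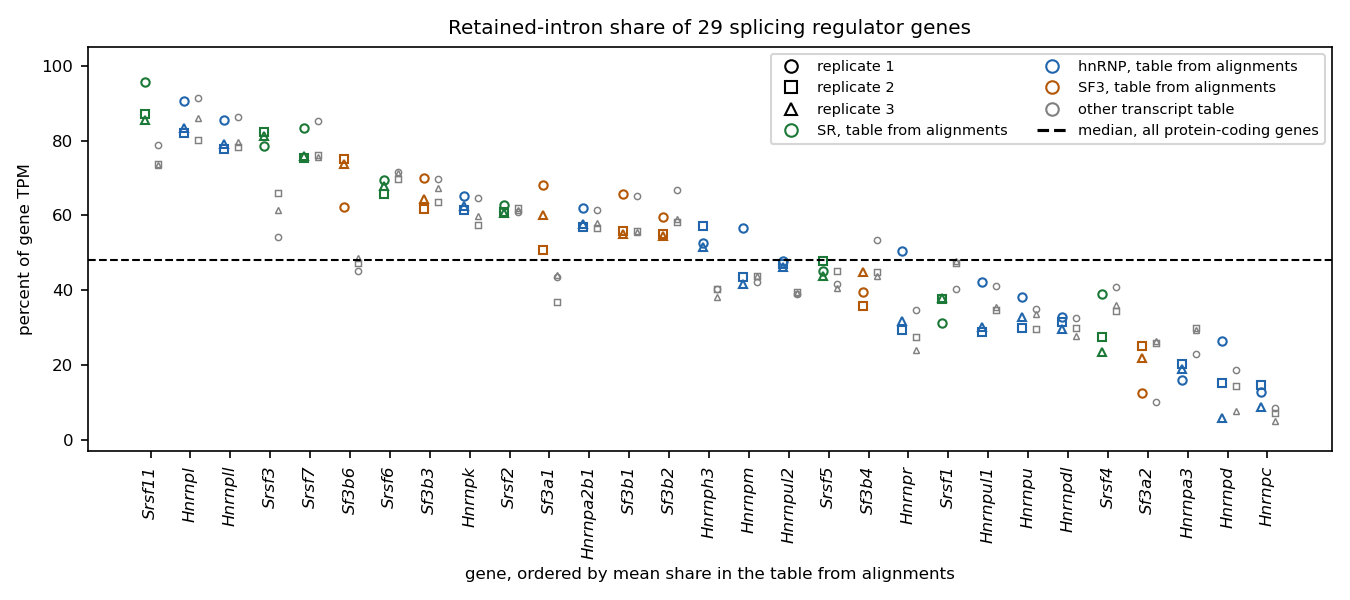
Percent of gene TPM on retained-intron transcripts in each library for the 29 detected genes with such a transcript, coloured by family, with the second transcript table in grey and the median of 5883 protein-coding genes as a dashed line. Srsf11, Hnrnpl, Hnrnpll, Srsf3 and Srsf7 lead, Hnrnpc is lowest, and the grey points lie well below the coloured ones in Srsf11, Srsf3, Sf3b6, Sf3a1 and Hnrnph3.

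A transcript of this type can either span a whole intron between exons or start or end inside one. Of the 96 retained-intron transcripts of members, 31 spanned at least 1 whole intron, and these held 48.4% ± 2.22 of the retained-intron TPM of members. Over all detected genes the spanning transcripts held 33.7% ± 0.768. Transcripts that start or end within an intron held 51.0% ± 2.26 in members and 65.6% ± 0.77 in all genes. In Srsf11, Hnrnpl and Sf3b2 the 3 leading retained-intron transcripts were all of the second kind. In Srsf2, Srsf3, Srsf5, Srsf6, Srsf7, Sf3b1, Hnrnpa2b1, Hnrnpul2 and Hnrnph3 the leading one spanned whole introns.

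Together these 31 transcripts spanned 39 different introns of 18 member genes, told apart by start and end. Alternative introns that overlap were counted separately, such as the 3 of Srsf2-203 and the 3 of Srsf6-204, so some bases enter more than once. The 39 introns had a median length of 446 bases and a median GC content of 36.5%. The 6145 introns spanned in all detected genes, counted in the same way, had 286 bases and 50.8%. All 39 began with GT and ended with AG, as did 98.4% of the 6145. The hexamer GTAAGT, on the transcribed strand, opened 6 of 39 member introns (15.4%) and 10.1% of all, and GTGAGT opened 5 of 39 (12.8%) and 14.7% of all. The 20 bases before the last 3 of each intron had a median of 70% C or T in both sets. The share of the TPM on these forms could not be assigned to single introns, since a transcript may hold several.

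Short introns held in retained-intron transcripts of hnRNP genes were chosen for their length. They are shown because they are all that the retained-intron form adds between the exons on either side. Those of Hnrnpa3 (chr2:75661818-75661895, plus strand), Hnrnph3 (chr10:63015895-63016079, minus) and Hnrnpdl (chr5:100036196-100036480, minus) lie between coding exons and are printed 5′ to 3′ on the transcribed strand, from the GENCODE M21 transcript sequences on mm10. Capitals mark the first 6 bases, which pair with U1 RNA, and the closing AG.
Hnrnpa3-205: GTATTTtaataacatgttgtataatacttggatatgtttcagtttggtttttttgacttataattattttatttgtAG
Hnrnph3-205: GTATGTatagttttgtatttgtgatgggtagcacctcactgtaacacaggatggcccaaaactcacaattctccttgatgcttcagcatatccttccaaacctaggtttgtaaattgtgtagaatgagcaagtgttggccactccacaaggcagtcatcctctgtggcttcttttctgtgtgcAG
Hnrnpdl-206: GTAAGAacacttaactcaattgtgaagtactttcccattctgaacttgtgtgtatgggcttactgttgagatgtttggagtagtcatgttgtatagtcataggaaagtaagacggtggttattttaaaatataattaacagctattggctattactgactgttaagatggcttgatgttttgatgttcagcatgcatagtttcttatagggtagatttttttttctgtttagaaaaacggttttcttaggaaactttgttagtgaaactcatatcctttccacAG

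These introns are 78, 185 and 285 bases long with a GC content of 20.5%, 43.8% and 33.7%. Hnrnpa3-205 is the only retained-intron transcript of its gene and held 18.4% of it, with 15.9%, 20.3% and 19.0% in the 3 libraries. Hnrnph3-205 held 18.4% of Hnrnph3, second to Hnrnph3-206 with 35.3%, which spans another intron of 430 bases. Hnrnpdl-206 held 16.2% and Hnrnpdl-204, which spans the same intron, 15.1% of Hnrnpdl. Each of the 3 genes thus had 1 or more short introns in its retained-intron forms, in every library.

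For the SR genes and Sf3b1 the longest spanned intron of a transcript was taken, whereas the hnRNP introns above were chosen to be short. Their difference in length is set by this choice and is not a result about the families. Spanned introns included 1 of 112 bases in Srsf5 and 1 of 2375 bases in Hnrnpa2b1. The ends of the SR and Sf3b1 introns are shown because these introns are kept whole in the leading retained-intron transcript of each gene. Those of Srsf3, Srsf6, Srsf7 and Sf3b1 are split in another transcript by an exon that carries a stop codon. That of Srsf2 holds an exon of a decay transcript whose stop is shared with a protein-coding transcript, and that of Srsf5 holds no exon of a decay transcript. The first line of each pair gives 3 exon and 6 intron bases at the 5′ end, and the second gives 20 intron and 3 exon bases at the 3′ end, with the invariant GT and AG in capitals.
Srsf2-203 5′ end: atgGTaatg
Srsf2-203 3′ end: ctctttcttttcaaacctAGatg
Srsf3-204 5′ end: cagGTactt
Srsf3-204 3′ end: tttactgtttctgcttctAGatc
Srsf5-212 5′ end: cagGTttgt
Srsf5-212 3′ end: cataattgtcttgtgttaAGgat
Srsf6-204 5′ end: gcaGTgagt
Srsf6-204 3′ end: actcccttcatgtgataaAGgtg
Srsf7-207 5′ end: cagGTattt
Srsf7-207 3′ end: ttttctaacttaaaaaatAGgtc
Sf3b1-203 5′ end: atgGTaatt
Sf3b1-203 3′ end: gttgctgttcttttctgcAGgag

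Srsf6-204, the only retained-intron transcript of Srsf6, held 69.5%, 65.6% and 67.9% of the gene. Its intron of 1283 bases lies at chr2:162932143-162933425. Srsf2-203 likewise is the only one of Srsf2, spans 1059 bases at chr11:116850962-116852020 and held 62.8%, 60.9% and 60.6%. Both shares varied little between libraries and were within 4 points of the second table, which gave 70.9% and 61.4%. Srsf2 overlaps Mettl23 and Mfsd11 on the opposite strand, and no label or header gives the strand setting of the counting, so their reads cannot be told apart with certainty; 16 of the 40 genes overlap an opposite-strand gene.

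Srsf7-207 held 64.6%, 46.0% and 52.9% of Srsf7 and spans 874 bases at chr17:80204388-80205261, with replicate 1 highest. Srsf3-204 held 39.6%, 35.1% and 36.7% of Srsf3 and spans 2150 bases at chr17:29038625-29040774 and a further intron of 393 bases. Srsf5-212 held 36.5%, 37.7% and 35.0% of Srsf5 and spans 1229 bases at chr12:80947866-80949094. Sf3b1-203 held 39.4%, 34.4% and 33.9% of Sf3b1 and spans 1813 bases at chr1:55014563-55016375. The introns of Srsf2, Srsf3, Srsf6, Srsf7 and Sf3b1 printed above each hold an exon of a transcript annotated for decay, as does 1 intron of Hnrnpa2b1. They are 6 of the 39 spanned introns, and no share over the introns of all detected genes is given. In Srsf2, Srsf6 and Hnrnpa2b1 this intron contains shorter spanned introns that hold no exon of a decay transcript. Between these shorter introns a protein-coding transcript has an exon of its own.

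Decay transcripts held a median of 4.88% ± 0.746 of gene TPM over the 20 detected members that have one, against 4.16% ± 0.794 over 2893 protein-coding genes. The median was 2.36% ± 0.673 over 9 SR genes, 5.55% in the second table, and 10.1% ± 3.52 over 10 hnRNP genes. Sf3b1 is the single SF3 gene with such a transcript and had 1.32% ± 0.787. Only 5 of the 20 members passed 10% in each library, against 22.6% of all such genes, a share near that of the background. They were Hnrnpa1, Hnrnpd, Hnrnpu, Hnrnpll and Srsf4. By counts 3 passed, Hnrnpa1, Hnrnpd and Hnrnpu, against 20.8% of all. Replicate 1 had the lowest decay share in 15 of the 20. The median over all protein-coding genes was likewise lowest in replicate 1, at 3.29%, 4.85% and 4.35% in replicates 1, 2 and 3.

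**Figure D4:**
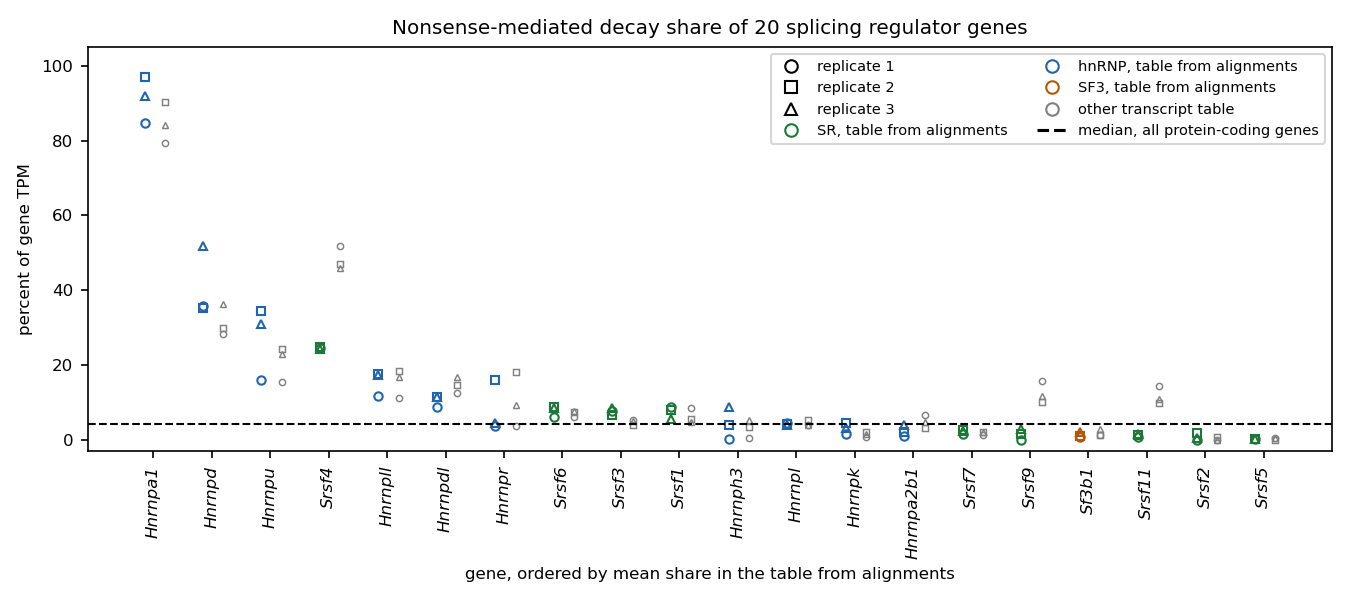
Percent of gene TPM on transcripts annotated for nonsense-mediated decay in each library for the 20 detected genes with such a transcript, coloured by family, with the second transcript table in grey and the median of 2893 protein-coding genes as a dashed line. Hnrnpa1 stands alone above 80%, and the grey points of Srsf4, Srsf9 and Srsf11 lie on average more than 10 points above the coloured ones.

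Hnrnpa1, at chr15:103240432-103246692, had 84.6%, 97.1% and 91.8% of its TPM on decay transcripts, and 79.4%, 90.4% and 84.2% in the second table. Hnrnpa1-203 held 38.5%, 60.01% and 51.8% and Hnrnpa1-204 46.1%, 37.0% and 40.03%, so the order of the 2 transcripts was not the same in each library. Both keep the stop codon of a protein-coding transcript and run on into spliced exons beyond it. They end 6260 bases from the start of the gene, and Hnrnpa1-202, which held all of the protein-coding TPM at 8.84%, ends at 4523 bases. The label of decay therefore rests here on exons after the normal stop, not on a premature one.

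Hnrnpd followed with 35.6%, 35.3% and 51.8%, highest in replicate 3, of which Hnrnpd-208 held 26.3%, 27.2% and 41.8%. It too keeps the stop of a protein-coding transcript. Hnrnpu had 15.9%, 34.4% and 31.1%, nearly all on Hnrnpu-206, whose stop lies in exon 14 of 17. Hnrnpu overlaps Cox20 on the opposite strand. Srsf4 had 24.7%, 24.7% and 24.3%, with hardly any spread, but 51.7%, 47.0% and 45.9% in the second table and a mean of 9.05% as a share of counts. Hnrnpll had 11.7%, 17.7% and 17.2%, all on Hnrnpll-203, and 15.4% in the second table.

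The families differed in where the stop of their decay transcripts lies. In SR genes 10 of 15 decay transcripts had it in an extra exon, one that lies within an intron of a protein-coding transcript. These held 83.4% ± 4.69 of the SR decay TPM. In hnRNP genes 2 of 20 had it in such an exon, holding 6.94% ± 1.60. Outside such exons, 9 of 20 hnRNP decay transcripts shared their stop with a protein-coding transcript and held 54.4% ± 2.70. In SR genes 2 of 15 did, holding 2.80% ± 3.73. For both kinds of stop the ranges of SR and hnRNP genes over the 3 libraries did not overlap. Most of the hnRNP TPM with a shared stop was on Hnrnpa1-203 and Hnrnpa1-204, with means of 51.9 and 42.1 TPM. The next was Hnrnpd-208 with 21.9 TPM, so this TPM share rests largely on 1 gene. Over all 4804 decay transcripts of detected genes, 31.1% had the stop in an extra exon and 4.93% shared it with a protein-coding transcript. They held 27.5% ± 1.21 and 5.70% ± 0.551 of the decay TPM of these genes. Of the 36 decay transcripts of members, 13 were of the first kind (36.1%) and 11 of the second (30.6%). A stop in an extra exon was placed there whether or not a protein-coding transcript shares it. Another protein-coding transcript may also contain part of that exon. In Srsf6, a protein-coding transcript has an exon that starts at the same base as the extra exon of Srsf6-201. Where the stop lies is a property of the annotation, and only the TPM shares are measured here.

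The stops in extra exons of Srsf3, Srsf4, Srsf6, Srsf7, Hnrnpl, Hnrnpll and Sf3b1 are shown with 12 bases to either side, as spliced, with the stop codon in capitals.
Srsf3-201: ctcaccaccctcTGAatctgcattagc
Srsf4-204: catgccccagctTAGagtgcttcaccc
Srsf6-201: gccttttgccatTAGacgcagggtgat
Srsf7-203: agtcagtcgcctTGAttcagaatgtca
Hnrnpl-213: ctaactcactgtTGAagcgtccaatgg
Hnrnpll-203: agaagcccacttTGAaaatgtgttgct
Sf3b1-208: tattctgctgctTGAagtcagaactgc

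The exon with the stop is 456 bases in Srsf3-201 (chr17:29039454-29039909), 460 bases in Srsf7-203 (chr17:80204622-80205081), 268 bases in Srsf6-201 (chr2:162932815-162933082) and 188 bases in Srsf4-204 (chr4:131884295-131884482). It is shorter in Hnrnpll-203, 83 bases at chr17:80044940-80045022, in Hnrnpl-213, 70 bases at chr7:28817335-28817404, and in Sf3b1-208, 56 bases at chr1:55014869-55014924. Srsf3-201 held 7.79%, 6.53% and 8.42% of Srsf3. Srsf4-204 held 18.4%, 20.4% and 22.0% of Srsf4, and Srsf6-201 6.10%, 8.75% and 8.44% of Srsf6. Srsf7-203 held 2.13% ± 0.463 of Srsf7 and Hnrnpl-213 4.20% ± 0.263 of Hnrnpl. In Srsf3, Srsf6, Srsf7 and Sf3b1 the transcript that keeps the whole intron held more of the gene than the one that splices in the exon, in every library.

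**Figure D5:**
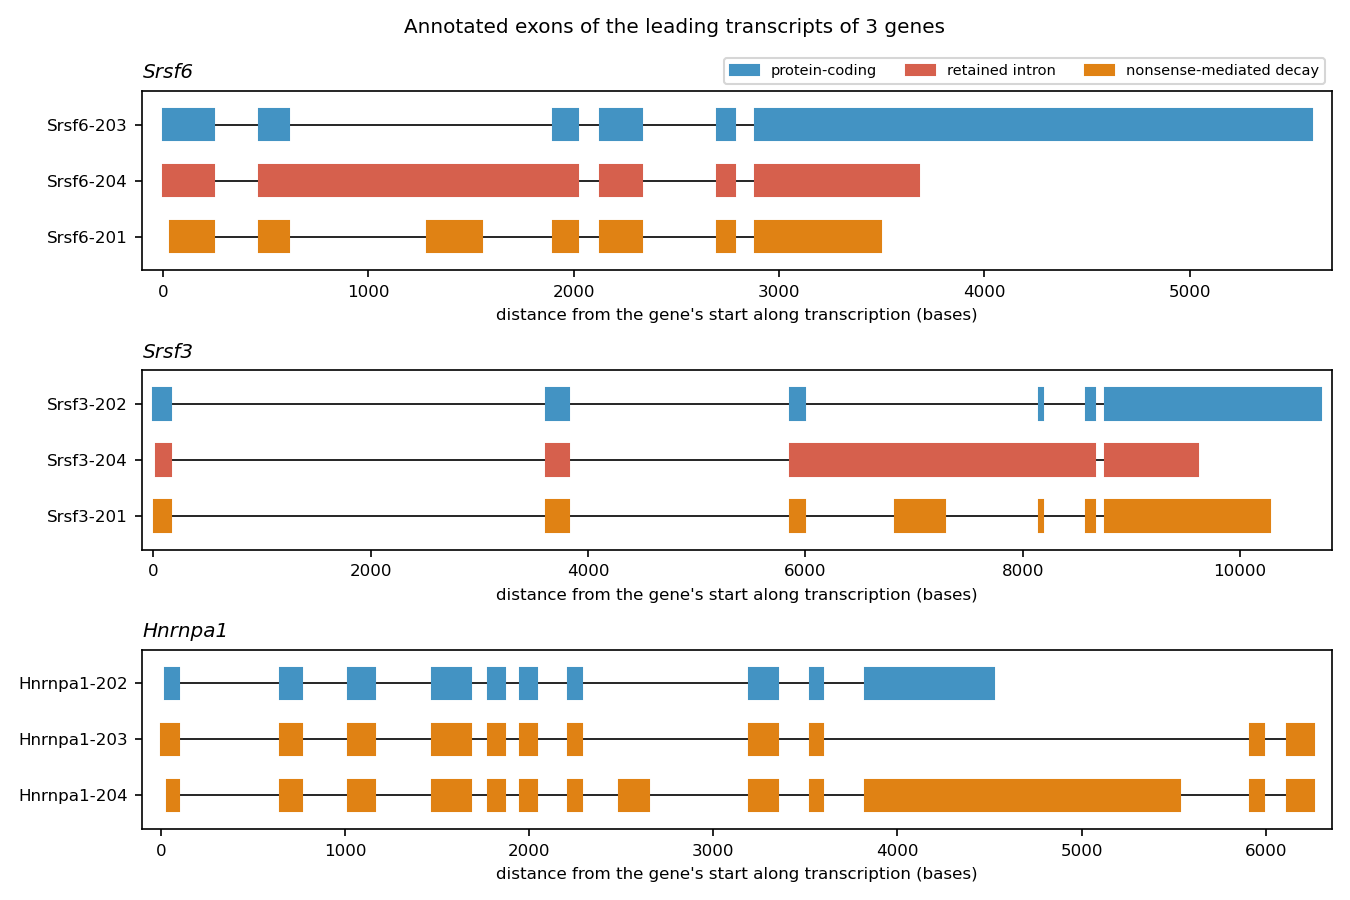
Annotated exons (boxes) and introns (lines) of the leading protein-coding, retained-intron and decay transcripts of Srsf6 and Srsf3, and of the leading protein-coding and both decay transcripts of Hnrnpa1, by distance from the start of the gene. In Srsf6 and Srsf3 the extra exon of the decay transcript lies inside the stretch that the retained-intron transcript keeps, while in Hnrnpa1 the decay transcripts run on to 6260 bases, beyond the end of the protein-coding one.

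A different pattern was seen in genes without any retained-intron transcript in the annotation. Hnrnph1 had 97.0%, 92.9% and 94.4% of its TPM on transcripts of type processed transcript, led by Hnrnph1-204 with 22.2% and Hnrnph1-207 with 19.7%, both of which span a whole intron. Srsf10 had 64.6%, 64.2% and 62.7%, of which Srsf10-207, which ends within an intron, held 44.8%. These were the 2 members above 50% in each library. Sf3a3 had 56.9%, 44.5% and 52.4%, and Srsf5 38.6%, 44.9% and 46.7% beside its retained-intron share of 45.6% ± 2.01. Retained-intron shares of 0 in Hnrnph1, Srsf10 and Sf3a3 are thus set by how their transcripts are classed.

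The 2 transcript tables gave similar orders of members. Spearman's rho of the retained-intron shares was 0.91 over 29 members, with a median absolute difference of 3.39 points, and 0.76 over all genes with 8.0 points. For the decay shares it was 0.81 over 20 members and 0.62 over all genes. The tables come from the same reads, so this describes the estimate and not the biology. The mean retained-intron share differed by more than 10 points in 5 members (Srsf3, Srsf11, Hnrnph3, Sf3a1, Sf3b6) and the decay share in 3 (Srsf4, Srsf9, Srsf11).

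Other splicing genes were compared by lists. All 90 listed genes were matched, 88 were detected and 73 had at least 10 TPM in each library. Kinases that phosphorylate SR proteins had a median of 75.1 ± 4.94 TPM with 8 of 8 detected, from Srpk2 at 25.8 ± 0.721 TPM to Clk1 at 236 ± 62.1 TPM, and a median retained-intron share of 62.6% ± 2.73. SR-related proteins were highest, at 153 ± 27.3 TPM with 14 of 14 detected, from Rsrc1 at 21.3 ± 1.73 TPM to Rbm39 at 980.3 ± 100.3 TPM. Further splicing RNA-binding proteins had 69.9 ± 5.74 TPM with 22 of 23 detected, and Rbfox2, the lowest, was below 1 TPM. The kinases and the further RNA-binding proteins lay near the SR and hnRNP genes in level, and the SR-related proteins above both.

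Core spliceosome genes were lower. U2 partners had 33.6 ± 3.18 TPM with 13 of 13 detected, from Phf5a, a small subunit of SF3b, at 4.23 ± 1.37 TPM to U2af2, which binds the pyrimidine tract, at 180.3 ± 25.5 TPM. Proteins of the U4/U6.U5 particle had 17.4 ± 2.48 TPM with 12 of 12 detected, from Usp39 at 4.80 ± 0.464 TPM to Ddx23 at 47.2 ± 5.63 TPM. U1 and Sm proteins had 6.59 ± 0.342 TPM with 9 of 10 detected, from Snrpf at 0.503 ± 0.242 TPM to Snrnp70 at 189 ± 7.60 TPM. Nonsense-mediated decay factors had 18.0 ± 3.30 TPM with 10 of 10 detected, from Smg8 at 4.16 ± 0.602 TPM to the kinase Smg1 at 143 ± 12.9 TPM. The SF3 genes, at 19.2 ± 4.29 TPM, lay within this lower range. The median retained-intron share was highest in the kinases. In the other lists it ran from 49.0% ± 5.69 in U4/U6.U5 proteins to 59.9% ± 1.51 in U2 partners.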

How the data were processed

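Total RNA of the chromatin fraction was measured in 3 libraries of 1 group. Per the file headers, the authors deposited expected counts (estimated, not whole) and TPM per gene and per transcript, made from alignments on mm10 with GENCODE M21, and a second transcript table of estimated counts and TPM made from the reads directly. The effective lengths deposited by the authors, in bases, gave the TPM worth 3 counts. Neither labels nor headers give the aligner, the quantifiers or the strand setting. The gene table held 26431 rows that are no gene of the symbol table. They took 1.37%, 0.337% and 0.455% of the expected counts in replicates 1, 2 and 3 and were left out of library sizes.

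Genes were chosen by symbol. Levels are TPM of the gene table, with a pseudocount of 1 on the log2 scale. Shares are sums of transcript TPM of a type over the gene's transcripts, for genes of at least 1 TPM in each library. Ratios between libraries used rounded expected counts, TMM factors of edgeR 4.0.16 and a prior count of 1, with DESeq2 1.42.0 size factors as an alternative, all run under R 4.3.3. The rest was done in Python 3.11.15 with numpy 2.4.6, pandas 2.3.3 and matplotlib 3.10.9. The shares and ratios were tested on simulated data. Introns of at least 60 bases and sequences came from the M21 annotation and transcript sequences. No promoter or protein sequence was used.

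No test was run, since there is 1 group. Named with values in every library are the 3 highest and the lowest gene of each family by mean TPM, the 5 highest and 3 lowest retained-intron shares, the 5 highest decay shares and the 3 largest ratios between libraries among detected genes. Further genes and transcripts are given by role or structure and were chosen after their values were seen. Some items that this rule takes are not reported here. The genes and lists were chosen with earlier results of these data known. Intervals and floors cover counting error only. Reads of near-identical copies, such as processed pseudogenes, may be split between genes by the estimate, which was not tested.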

Additional observations from a re-analysis of the deposited data

How the results depend on the processing

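Of 86 alternative values of 13 results, 66 stayed within the spread or count limit and 20 moved. The direction of members against all genes in retained-intron share, which is not among these, turned in the second table (52.9% against 48.0%, and 44.3% against 46.4%). The log2 level above protein-coding genes of SR genes was 2.77 in the second table, 3.42 with a pseudocount of 0.1, 2.65 over genes of at least 1 TPM and 3.38 with TPM rescaled to protein-coding genes. That of hnRNP genes was 2.80 over genes of at least 1 TPM, and that of SF3 genes 1.03 there and 2.43 in the second table. The retained-intron share of SR genes was 60.95% in the second table, 68.5% by counts and 61.6% of summed TPM. That of hnRNP genes was 29.4% by counts and 49.3% of summed TPM, and that of SF3 genes 49.7% in the second table and 33.9% by counts. The decay share of SR genes was 5.55% in the second table and that of Sf3b1 0.124% by counts. The count of genes above 10% on decay transcripts was 3 by counts and that above 50% on retained-intron transcripts 10, both chosen as alternatives after seeing the data. The count of genes more than 2-fold apart was 2 with no filter or with TPM as deposited, and 0 to 1 when a replicate was left out, with 0 without replicate 1. No paired analysis was possible because the libraries form 1 group. Depth differs between libraries, 3 libraries give a coarse SD, and the genes with fewest counts, Srsf12 and Sf3b5, are below what these libraries measure well.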
